A study of Mus musculus with 6 samples.

Results

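All 2043 ChIP–seq peaks listed for ZBTB43 in 491K cells with input as the control are described here, of 3588 peaks in the 4 peak lists of the series. Membership follows from the list alone, and no measured value was used to choose among its peaks. The cells were prospermatogonia, the male germ cells of the mouse fetus, taken at 15.5 dpc from wild-type male fetuses of B6;CBA-Tg(Pou5f1-EGFP)2Mnn/J mice, for which C57BL/6J females had been mated with OG2 males. Germ cells were sorted for the EGFP that the Pou5f1 (Oct4) transgene drives, and batches of sorted cells were combined to reach the cell number. The ZBTB43 library was made with a rabbit polyclonal antibody. The input library, labelled with the same cell number, came from 1 part in 10 of the sheared chromatin, taken out before antibody was added. Both libraries therefore carry the transgene. Each side was 1 library, which gives no replicate error, and values are therefore given as descriptions with no test between conditions. Intervals are 95% intervals and cover counting error only. The peak list holds no expression values, so the identity of the sorted cells could not be read from marker genes.

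ZBTB43 belongs to a family of transcription factors with a BTB domain for protein interaction and zinc fingers that contact DNA. Runs in which purines and pyrimidines alternate at every base are here called alternating tracts or PPRs (purine–pyrimidine repeats). They include the sequences that most readily take the left-handed Z-DNA form, but whether a given tract does so was not tested. Of the dinucleotide repeats among them, those of CA paired with TG are the most common in the mouse genome. Prospermatogonia acquire DNA methylation de novo, chiefly at CG dinucleotides, after its erasure in the primordial germ cells they come from. The peak score is 10 times the −log10 of the q-value from the peak caller MACS2, so a higher score means a smaller q-value for the excess of ZBTB43 fragments over input.

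The sequences under the peaks show what the list holds, and 6 were chosen to represent it. They are bases of the mm10 reference on the plus strand, taken from the genome and not from reads. In the first 3 the capitals mark the longest alternating tract, in the next 2 the longest perfect tandem repeat, and in the last an annotated gene for a small nuclear RNA. The first 2 are among the 20 highest-scoring peaks; the other 4 were picked after their values had been seen.
near Kif6, chr17:49941276-49941474: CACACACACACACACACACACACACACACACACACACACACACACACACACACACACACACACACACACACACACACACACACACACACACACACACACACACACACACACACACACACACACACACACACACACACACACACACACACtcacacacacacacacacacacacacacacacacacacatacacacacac
Eya2 intron, chr2:165614826-165614961: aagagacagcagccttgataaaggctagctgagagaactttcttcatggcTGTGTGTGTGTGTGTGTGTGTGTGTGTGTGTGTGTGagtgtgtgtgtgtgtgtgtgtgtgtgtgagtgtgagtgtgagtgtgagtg
near Trib2, chr12:16015483-16015628: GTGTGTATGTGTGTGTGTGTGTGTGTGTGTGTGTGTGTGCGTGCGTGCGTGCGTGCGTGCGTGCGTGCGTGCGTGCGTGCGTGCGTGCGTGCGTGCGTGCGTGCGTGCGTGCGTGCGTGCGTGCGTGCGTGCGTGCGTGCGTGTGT
Rasgrf2 intron, chr13:92043926-92044077: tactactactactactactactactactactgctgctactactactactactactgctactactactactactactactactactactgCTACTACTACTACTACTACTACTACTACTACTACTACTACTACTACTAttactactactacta
Pcdh9 intron, chr14:93064717-93064844: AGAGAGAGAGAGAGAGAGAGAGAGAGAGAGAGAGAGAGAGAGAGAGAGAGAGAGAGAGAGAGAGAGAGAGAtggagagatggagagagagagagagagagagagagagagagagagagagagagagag
Gm24407, chr5:115490250-115490397: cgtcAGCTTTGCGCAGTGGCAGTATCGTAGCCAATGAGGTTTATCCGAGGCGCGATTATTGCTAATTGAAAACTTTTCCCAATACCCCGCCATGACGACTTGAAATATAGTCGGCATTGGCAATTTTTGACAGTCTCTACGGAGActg

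The tract near Kif6 runs for 149 bp, and the Eya2 tract is only 36 bp long although its peak scored 6245. The peak near Trib2 was alternating over its whole width of 146 bp and held 26 CG dinucleotides, with a score of 4332. The Rasgrf2 peak, a trinucleotide repeat that does not alternate, scored 4495 and was the highest-scoring peak without an alternating tract. The Pcdh9 peak is a GA/TC repeat, in which purines sit on one strand and pyrimidines on the other, and scored 1113.

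Every peak was placed in 1 of 5 sequence classes. An alternating tract of at least 20 bp was present in 1575 peaks (77.1%, Wilson interval 75.2% to 78.9%), compared with 3.75% of all 200-bp windows of the genome. Cutting every peak to the 200 bp around its centre, to match the windows, gave 74.99%. Of the remaining peaks, 157 held a perfect GA/TC repeat of at least 20 bp, 43 another perfect repeat with a unit of up to 4 bp, 151 no perfect repeat but mostly soft-masked bases, which are those the reference marks as repeated, and 117 mostly unmasked bases. The median score fell across these classes in the order alternating tract (233), GA/TC repeat (192), other perfect repeat (192), masked (104) and unmasked (59), and the quartile ranges of the first 2 overlapped, at 104 to 503 and 116 to 363.

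The classes also differed in how often they were listed elsewhere. Of peaks with an alternating tract, 50.03% (47.6% to 52.5%) shared at least 1 bp with a peak called from the same ZBTB43 library against IgG, compared with 8.92% (5.39% to 14.4%) of the GA/TC class. That IgG library was made from 415K cells, so unlike the input it was not matched to the ZBTB43 library in cell number. In the 100K input-controlled list, made from a separate library, the shares were 32.4% (30.2% to 34.8%) and 28.03% (21.6% to 35.5%). The intervals of the GA/TC and alternating classes thus overlapped in the second input-controlled list and were far apart against IgG. Width moved with this difference, at a median of 141 bp for GA/TC peaks and 195 bp for alternating ones. Among peaks of at most 150 bp, 3 of 97 GA/TC peaks (3.09%) and 47 of 461 alternating ones (10.2%) were listed against IgG, and among wider peaks 11 of 60 (18.3%) and 741 of 1114 (66.5%). In the unmasked class 82 of 117 peaks overlapped coding sequence, and 6 of 117 recurred in the 100K list (5.13%, 2.37% to 10.7%).

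By repeat unit, perfect CA/TG repeats of at least 20 bp were found within 200 bp of sequence centred on 63.5% of peaks, which is 32.2 times their share of genome windows (1.97%). GA/TC repeats were at 12.5% of peak centres, 13.8 times their share of windows. The 4-bp unit that joins CA and CG steps, as in the sequence near Trib2, was rare at 34 peak centres (1.66%), yet its share was 182 times that of genome windows (0.00913%). Perfect TA repeats, which also alternate, were almost absent: 6 of 40851 such repeats in the genome were under a peak (0.0147%).

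Most alternating tracts of the genome were not under a peak. Of 586442 tracts, 5514 were (0.940%), and this share depended on tract length and composition. It was 0.982% for tracts of 20 to 29 bp and 0.644% for those of 40 to 59 bp, and then rose to 4.34% (3.91% to 4.82%) for 100 bp to under 200 bp and 29.5% (26.5% to 32.8%) for 200 bp or more. Of tracts with CG steps and no AT or TA step, 38 of 132 were under a peak at 100 bp to under 200 bp (28.8%, 21.8% to 37.03%) and 22 of 22 at 200 bp or more (85.1% to 100%). Tracts of CA/TG alone were rarer at these lengths, with 14 of 21 (66.7%, 45.4% to 82.8%) and 3 of 5 under a peak. With both CG and AT steps the shares were 5.89% and 34.1%, and with AT steps and no CG they were 2.71% and 21.6%. Of the 22 long CG tracts without AT steps, 19 were under a peak that was also listed against IgG.

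Perfect CA/TG repeats were also more often under a peak when long. Under a peak were 2.21% of repeats of 20 to 39 bp, 0.880% of those of 40 to 59 bp, 2.62% (2.15% to 3.20%) of those of 60 to 99 bp, and 49 of the 64 repeats of at least 100 bp (76.6%, 64.9% to 85.3%). All 49 were among the 58 such repeats on autosomes, while the other 6 of the genome were on chromosome Y and none of them was under a peak. The 47 peaks over these repeats had a median score of 1021 (quartiles 423.5 and 5147), 35 were also listed against IgG, compared with 878 of all 2043 peaks (43.0%), and they included 14 of the 20 highest-scoring peaks. The longest such repeat of the genome, of 423 bp, was not under a peak. Among GA/TC repeats of at least 100 bp the share was 12 of 131 (9.16%, 5.32% to 15.3%). Short tracts were often counted beside a longer one, as 1126 of the 1575 peaks with a tract (71.5%) held at least 2.

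**Figure D1:**
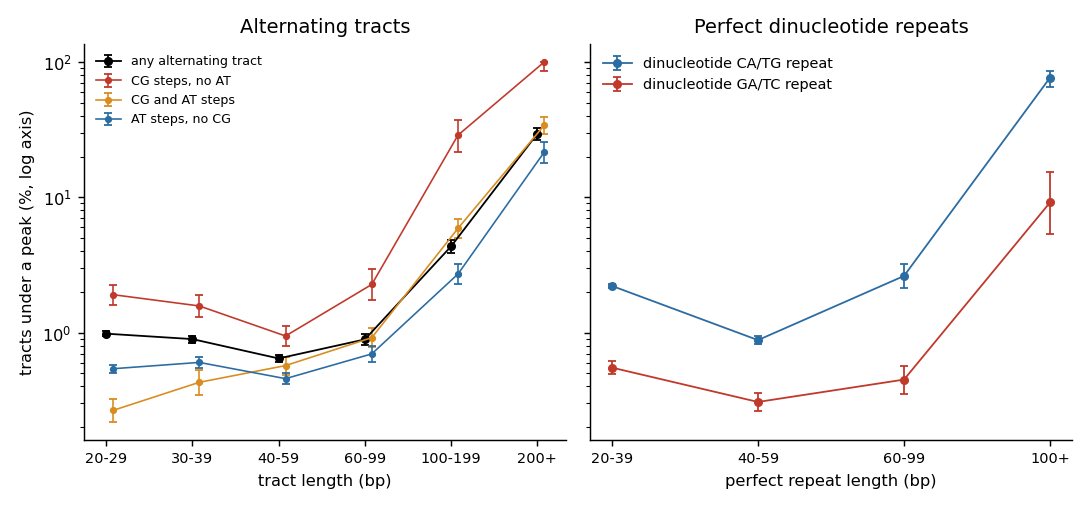
Share of all genomic tracts under a peak (percent, log axis) by tract length in bp, for all alternating tracts and for those with CG steps and no AT, with both, or with AT steps and no CG (left; tracts of CA/TG alone are not drawn) and for perfect dinucleotide repeats (right), with Wilson 95% intervals. All plotted shares lie at or below 2.62% up to 99 bp, and they reach 29.5% for all alternating tracts of 200 bp or more, 100% for those with CG steps and no AT, and 76.6% for CA/TG repeats of 100 bp or more.

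Within peaks, the longest tract had a median length of 51 bp (quartiles 38 and 120 bp, longest 869 bp), and tracts covered a median of 69.7% of the peak. The centre of the longest tract lay a median of 45.5 bp from the peak centre (quartiles 18 and 88.5 bp), and 585 of the 1575 longest tracts (37.1%) covered the centre itself. Across these peaks tract length went weakly with score (Spearman rho = 0.144, n = 1575 peaks of 1 library) and hardly with width (rho = 0.0692). Peaks whose longest tract was 20 to 39 bp had a median score of 166 (quartiles 81 and 348), those with 40 to 59 bp 289 (140 to 601), those with 60 to 99 bp 260 (128 to 662) and those with at least 100 bp 219 (104 to 568). The scores thus overlapped between all length groups, although long tracts were more often under a peak at all.

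CG dinucleotides, the sites of DNA methylation, were unevenly spread over the peaks. None was present in 1222 peaks (59.8%), whereas peaks in total held 1.34 CG per 100 bp compared with 0.826 in the genome. Of the peaks with a tract, 407 had at least 1 CG in the longest tract, with a maximum of 97. Their scores overlapped with those without, at a median of 233 (116 to 568) compared with 225.5 (103.75 to 487), while their longest tracts were longer, at a median of 122 compared with 47 bp. Peaks with a CG in the tract were listed against IgG in 61.4% of cases and those without in 46.1%. The former were also wider, at a median of 275 compared with 185 bp, and the share listed against IgG rose with width. The 2 were not separated. The highest-scoring peaks with at least 10 CG in the tract were 7.41 kb from Zdhhc2 (score 5806, 26 CG in a tract of 633 bp) and 3.42 kb from the predicted gene Gm10320 (score 5515, 20 CG in 555 bp).

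Peaks were short and their scores were spread over more than 3 orders of magnitude. The width ran from 118 to 1641 bp with a median of 181 bp (quartiles 140 and 327.5 bp), and 680 peaks (33.3%) were at most 150 bp wide. The lowest score was 13 and the median 196 (quartiles 90 and 439), and 209 peaks (10.2%) scored at least 1000. The 204 peaks with scores of at least 1021 held 56.4% of the summed score, the top 20 peaks held 23.0%, and the lower-scoring 50% of peaks held 9.53%.

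Width and score were loosely related (Spearman rho = 0.267, n = 2043 peaks). Peaks of at most 150 bp had a median score of 153 (quartiles 70 and 333), those over 150 and up to 300 bp 166 (81 to 363), those up to 600 bp 260 (138.5 to 528.25), and the 178 wider ones 591 (275 to 1312.5). Wider peaks more often held a tract, from 67.8% of the narrowest group to 96.1% of the widest, and the share also listed against IgG rose from 9.71% to 99.4%. Some narrow peaks still scored high, such as the peak of 142 bp near Fpr-rs6, which scored 5132 and had no IgG-controlled peak.

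**Figure D2:**
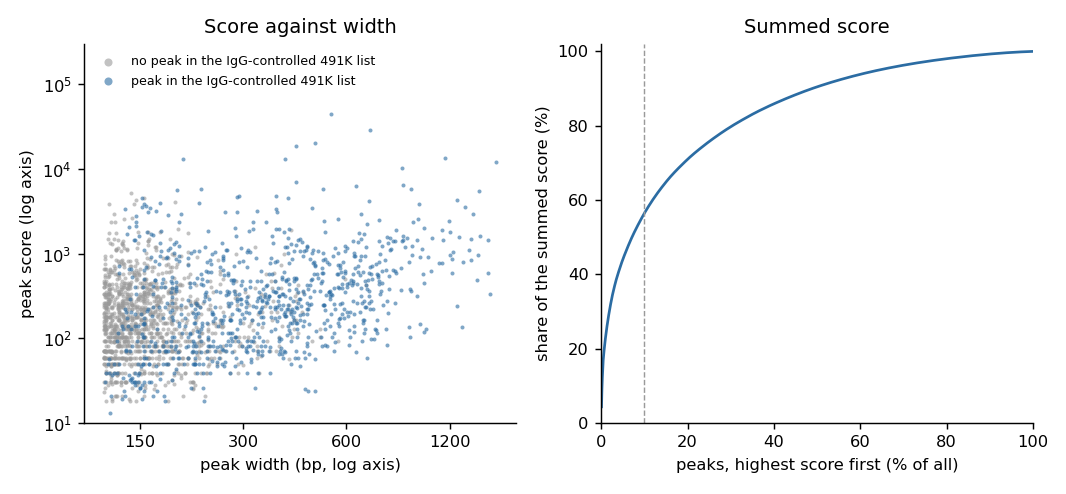
Left, score against width (bp) of the 2043 peaks on log axes, coloured by whether the IgG-controlled 491K list holds an overlapping peak. Right, the share of the summed score held by peaks ranked from the highest score, with a dashed line at 10% of peaks, where 56.4% of the score is reached. Most peaks under 150 bp have no IgG-controlled peak, and nearly all over 600 bp have one.

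The 20 highest-scoring peaks, with scores of at least 4750, lay on 14 chromosomes and each held an alternating tract, of 36 to 633 bp (median 175 bp). Of these peaks 5 were centred in an intron and 15 between genes, and 1 had a neighbouring peak within 10 kb. Every one overlapped a peak of the 100K input-controlled list, and 19 overlapped one of the 491K list called against IgG from the same ZBTB43 library. None overlapped the 100K list called against IgG, but that list held only 18 peaks in all. Among the first 10 were 9 that overlapped the 10 highest of the 100K input-controlled list, which came from separate ZBTB43 and input libraries.

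Values of single peaks are given for some of these 20. The peak in an intron of Mocos, the molybdenum cofactor sulfurase (chr18:24676904-24677605), scored 28657, compared with 3960 against IgG and 8555 with 100K cells. A peak 19.1 kb from 1700010I14Rik was listed with a score of 20318 (2817 against IgG and 7373 with 100K cells), and its tract of 389 bp took up most of the 487-bp peak. A peak 24.5 kb from Gm21961 scored 18913 and one 4.29 kb from Creg1 scored 13313.

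Further down, the peak near Kif6, a kinesin motor gene 31.5 kb away, scored 13217 within 201 bp, the narrowest of the 10 highest. The peak 14.3 kb from Aebp2, which encodes a cofactor of Polycomb repressive complex PRC2, scored 12972 and held a CA/TG tract of 196 bp. The peak 9.72 kb from Fam135b scored 12080 and, at 1641 bp, was also the widest of the list. The peaks nearest to Akap12, a scaffold of protein kinase A, and to Nedd1, a centrosome protein, scored 10323 and 7086. Other genes that held a top-20 peak in an intron were Eya2 (score 6245), Cfap299 (5842) and Exoc5 (5660), the last a subunit of the exocyst. Scores depend on the depth of each library and on its control, so their order can be compared within a list but their size not between lists.

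**Figure D3:**
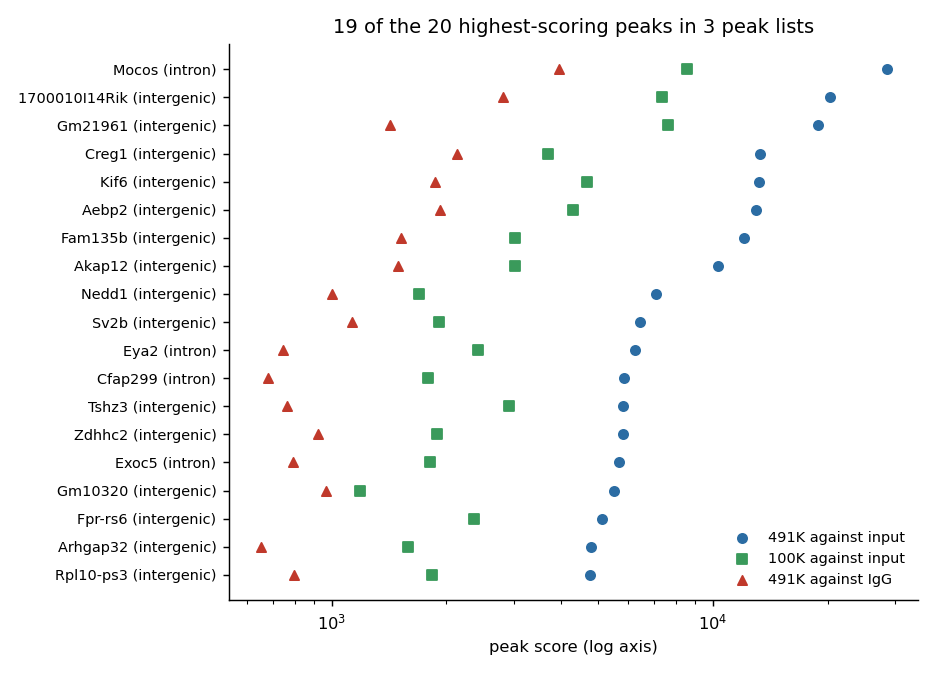
Scores (log axis) of 19 of the 20 highest-scoring peaks in the input-controlled 491K list (circles), with the overlapping peak of the input-controlled 100K list (squares) and of the IgG-controlled 491K list (triangles); the label gives the gene that holds the peak centre or the nearest protein-coding gene. The circles run from 4750 to 28657, all 19 peaks have a square, and the peak near Fpr-rs6 has no triangle.

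The widest peaks were not the strongest apart from the one near Fam135b. The next 4 in width, of 1470 to 1578 bp, lay in introns of Bend5 (score 333), Plekhh2 (584), Klhdc1 (1456) and Atf7ip (1605), which encodes a partner of the histone methyltransferase SETDB1. Their longest tracts were 25, 57, 31 and 41 bp, and the Plekhh2 peak held 27 separate tracts. All 4 were also listed against IgG, and the Klhdc1 and Atf7ip peaks recurred with 100K cells, at scores of 163 and 218.

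Peaks were found on all 21 chromosomes of the reference, and they were sparse on the sex chromosomes. Autosomes held 84.0 peaks per 100 Mb of known sequence (exact Poisson interval 80.4 to 87.8), from 64.9 on chromosome 7 and 69.3 on chromosome 1 to 105.8 on chromosome 17, 106.3 on chromosome 18 and 108.2 on chromosome 19. The intervals of chromosomes 7 (52.3 to 79.5) and 19 (83.2 to 138.5) did not overlap, whereas those of the 3 chromosomes with the highest densities did. Counted per 1000 alternating tracts, which differ in number between chromosomes, the autosomes ranged from 2.96 on chromosome 1 to 4.76 on chromosome 19. Across the 19 autosomes peak density went with tract density (Spearman rho = 0.496) more than with GC content (rho = 0.251).

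On chromosome X 24 peaks were listed, or 14.7 per 100 Mb (9.41 to 21.8), which is 0.175 of the autosomal density. Chromosome Y held 6, or 6.81 per 100 Mb (2.50 to 14.8). The difference was also present per repeat, as per 1000 tracts there were 0.947 peaks on X (0.607 to 1.41) and 0.534 on Y (0.196 to 1.16), compared with 3.66 (3.50 to 3.82) on autosomes. Among tracts of at least 60 bp, 3 of 2703 on X were under a peak (0.111%, 0.0378% to 0.326%), compared with 1004 of 53105 on autosomes (1.89%, 1.78% to 2.01%). The median score of the X peaks was 260.5, compared with 194 on autosomes, and the highest was 40.9 kb from Xlr, a gene family expressed in germ and lymphoid cells, with a score of 1593 and a CA/TG tract of 62 bp. Restricted to peaks also listed against IgG, X held 6 peaks, or 3.67 per 100 Mb, 0.101 of the autosomal density. The cells were male and so carried single copies of X and Y. Whether copy number or the mapping quality filter accounts for the lower densities was not tested.

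**Figure D4:**
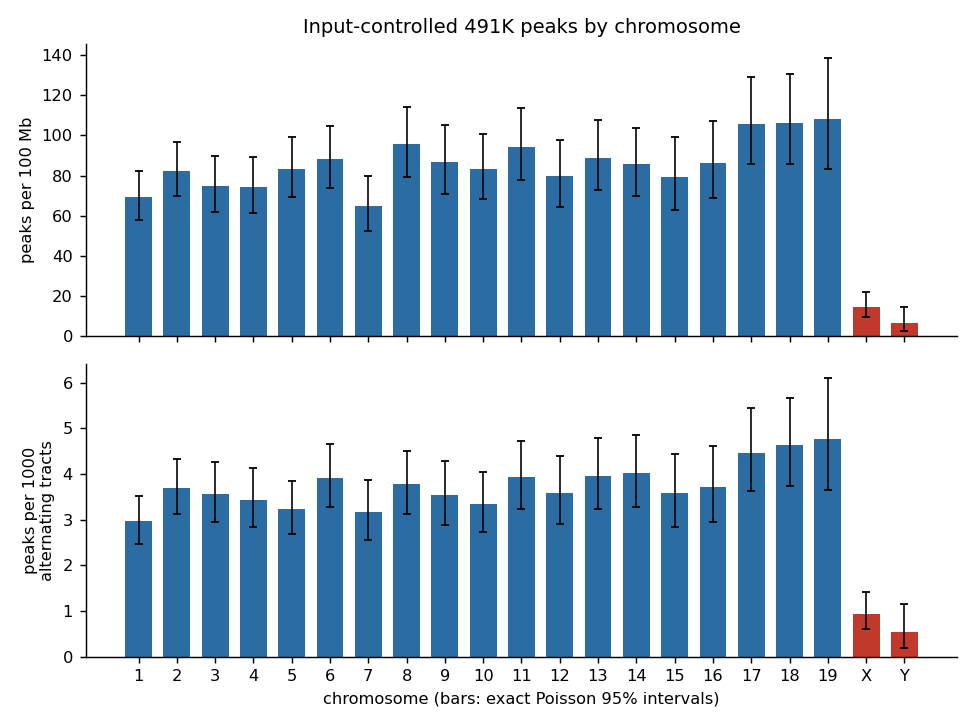
Peaks per 100 Mb of known sequence (top) and per 1000 alternating tracts of the chromosome (bottom), by chromosome, with exact Poisson 95% intervals. Autosomes (blue) lie between 64.9 and 108.2 peaks per 100 Mb, and X and Y (red) at 14.7 and 6.81.

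Along the autosomes, peaks were more frequent towards the end distal to the centromere, which in the mouse is the high-coordinate end. With each autosome cut into 10 equal parts, the last part held 339 of 2013 autosomal peaks (16.8%, 15.3% to 18.5%) and the one before it 269 (13.4%), while the second to the seventh held 8.00% to 8.89% each. Tracts were also more frequent there. Per 1000 tracts the last part had 4.76 peaks, the first 4.56 and the second to the seventh 3.16 to 3.29. The last part held 18.9% of the peaks also listed against IgG.

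Neighbouring peaks were a median of 688 kb apart (quartiles 242 and 1576 kb, longest 19.6 Mb). Few came in groups: 116 peaks (5.68%, 4.76% to 6.77%) had a neighbour within 10 kb, in 48 pairs, 5 groups of 3 and 1 group of 5. In 21 of 2022 gaps the peaks were at most 300 bp apart. Peaks with a neighbour had a median score of 181.5 (quartiles 81 and 325.5) and the other 1927 a median of 205 (92 to 447). A tract was present in 62.1% of the former and 78.0% of the latter, while 18.1% of the former and 3.53% of the latter overlapped coding sequence. Of 1-Mb bins over the genome, 53.0% held no peak and 29.1% held 1.

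**Figure D5:**
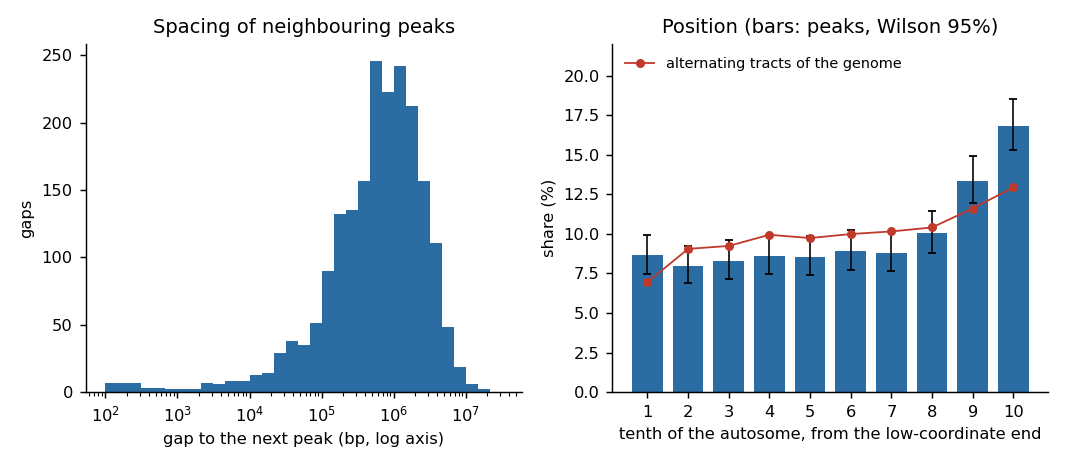
Left, number of gaps between neighbouring peaks by length in bp on a log axis. Right, share of autosomal peaks (bars, Wilson 95% intervals) and of alternating tracts (line) in 10 equal parts of the chromosome, numbered from the centromere end. The quartiles of the gaps are 242 and 1576 kb, and the last part holds 16.8% of peaks.

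The largest group and the densest windows were of different kinds. The group of 5 covered 11544 bp of Myh1, a myosin heavy chain of skeletal muscle, and all 5 peaks overlapped its coding exons, held no tract and scored 128 to 701. Only 1 of them was listed against IgG and 1 with 100K cells. The surrounding 1-Mb window of chromosome 11 held 10 peaks, with others at the exons of Myh4, Myh8 and Myh13 and a peak with a tract of 291 bp near Stx8. Myosin heavy chain genes are close paralogs, and whether reads were placed at the right copy was not tested. Another window with 10 peaks, on chromosome 6 from Pik3c2g to Gm11077, had a tract in every peak, scores from 59 to 12972 and 6 peaks also listed against IgG. The window with 8 peaks spanned Tshz2, which encodes a zinc finger homeobox factor, Pfdn4 and Dok5 on chromosome 2, again with a tract in each, and its highest score of 1533 was in Tshz2.

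A peak within the gene or 10 kb either side was found for 1132 of 21938 protein-coding genes (5.16%), and the share followed gene length. With genes split by length into 4 classes of like size, it was 1.60% in the shortest class (median length 3.40 kb) and 12.3% in the longest (92.0 kb). The predicted gene Gm20388 held the most, 11 peaks over an annotated span of 4435 kb, while Myh1 held 5 in only 24.5 kb. For Fgfr2 5 were counted over an annotated span of 2961 kb that starts at chr7:130162451. The first of these 5 began at chr7:130284339, and whether they belong to Fgfr2 was not tested. Arhgap28, Gm37240, Gpc6, Hdac9, Rbms3, Tenm2 and Tshz2 had 4 each. Close to transcript starts peaks were not frequent, as 42 (2.06%, 1.52% to 2.77%) were centred within 1 kb of a protein-coding start compared with 2.37% of genome windows.

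Gene lists chosen with earlier results of these data known were set against that background. Of 30 germ cell genes, with a median gene length of 40.7 kb, 4 had a peak (13.3%, 5.31% to 29.7%, beside 5.16% of all genes). In only 1 of the 30 was it in the gene body, where 3.65% of all protein-coding genes had one. Piwil4, a PIWI protein of fetal germ cells that guides methylation of transposons, had a peak 5.90 kb away. By position this peak was assigned to another gene, Fut4, which holds its centre or lies nearest to it. The peak scored 1263 and held a tract of 304 bp. It scored 184 against IgG and 178 with 100K cells. The other 3 were weak, with scores of 140 near Kit, the receptor for stem cell factor, 92 in Gfra1, a receptor of GDNF, and 24 near Pou5f1, whose promoter also drives the transgene. Of 25 genes of the DNA methylation machinery only Dnmt3a, the de novo methyltransferase, had a peak (4%, 0.710% to 19.5%). The Dnmt3a peak scored 140, held no tract and was not listed against IgG.

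None of 33 DNA break repair and topoisomerase genes had a peak (0% to 10.4%), and 1 of 30 imprinted genes did (3.33%, 0.591% to 16.7%). This was Inpp5f, with a peak 8.28 kb away (score 535) that was assigned by position to Mcmbp. Of 18 genes of testis somatic cells 2 did (11.1%, 3.10% to 32.8%), and neither peak was in the gene body. They were 6.42 kb from Amh (score 104) and 1.02 kb from Wt1 (260), both without a tract. Of 9 genes for proteins that bind Z-DNA or double-stranded RNA, with a median gene length of 38.4 kb, 3 did (33.3%, 12.1% to 64.6%, beside 5.16% of all genes). Among them, Stau2 had peaks scoring 24, 333 and 153, and Adarb2 had peaks scoring 114 and 95. Of 17 loci taken from the paper, 14 had a peak, with scores from 99 to 2414, the highest at Spg11. Several of them, such as Src, Pcdh7 and Tshz2, were shown in the paper for their peaks in these libraries. Their share is therefore no independent evidence.

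Of 40 ZBTB family genes 4 had a peak (10%, 3.96% to 23.1%), and in 3 of them it was in the gene body. They were Zbtb46 (score 471, tract of 221 bp), Zbtb7c (117, 83 bp), Zbtb12 (37, 37 bp, 8.29 kb away) and Zbtb43 itself. The antigen's own gene had 2 peaks (chr2:33453699-33453954, score 70, and chr2:33454445-33454645, score 59). Both were centred in its coding exon, held no alternating tract and were not listed against IgG, and the first overlapped a 100K peak that scored 50.

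Coding sequence was overlapped by 89 peaks in all, with a median score of 70 (quartiles 49 and 125), and 6 of them held a tract. Listed against IgG were 14, and 7 recurred with 100K cells, while of all 2043 peaks 878 (43.0%) and 604 (29.6%) did. After Myh1, Acta1, the actin of skeletal muscle, had the most with 3, and Myh4, Myh7, Bcl11b, Kcnh1, Scn8a, Tuba4a, Tubb3 and Zbtb43 had 2 each. These genes were named after their values had been seen. Whether muscle or neuronal cells added to the sorted cells cannot be read from a peak list and was not tested.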

How the data were processed

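ChIP–seq was performed on 15.5 dpc prospermatogonia. Per the labels and the methods, the authors demultiplexed reads with bcl2fastq 1.9.0, trimmed them with Trim Galore 0.6.0, aligned them to mm10 with BWA 0.7.17, kept properly paired reads of mapping quality 30 or more, called peaks of the ZBTB43 library against input with MACS2 2.2.7.1 (q-value 0.05, duplicates removed), and removed blacklisted regions. The unit of the deposited list is the peak score, 10 times −log10 q. Depth cannot be read from it.

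Here peaks were compared with GRCm38.p6 (mm10) and GENCODE M21 using Python 3.11.15, NumPy 2.4.6, SciPy 1.17.1 and Matplotlib 3.10.9. Alternating tracts and perfect tandem repeats (unit up to 4 bp) of at least 20 bp were found in the whole genome, and overlaps needed 1 bp. Code was tested on simulated sequence. No test was run, since each side was 1 library. Named were the 20 highest-scoring and 5 widest peaks, the 3 densest 1-Mb windows, the largest group within 10 kb, peaks at listed genes, and items said to be picked later. Lists and members were chosen with earlier results of these data known. A few genes and their peaks are not reported here.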

Additional observations from a re-analysis of the deposited data

How the results depend on the processing

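Each side was a single library, and intervals cover counting error only. Of 30 alternative values, 12 stayed within the interval of the value reported or, for a count of genes, within 1.5 times. These include all alternatives at q under 0.01, a cut that removed only 12 of the 2043 peaks, so little change was possible. No paired analysis was possible because a single library stood on either side. With only peaks also listed against IgG, the median score was 275, the median width 340.5 bp, the share of the summed score in the upper 10% of peaks 58.3%, the density 36.3 peaks per 100 Mb on autosomes and 3.67 on X, the share of peaks with a tract 89.7%, the share of genomic tracts under a peak 0.594%, the median tract distance 75 bp and the share of protein-coding genes with a peak 2.46%. The share of peaks with a neighbour was 2.69% at 1 kb and 21.6% at 100 kb. A tract was found in 80.8% of peaks with a run of at least 12 bp, 67.3% with at least 30 bp and 74.99% in the central 200 bp. Of genomic tracts 0.913% were under a peak with a run of at least 30 bp and 0.693% when the whole tract had to be. Genes with a peak were 3.65% for the gene body alone and 11.6% with 50 kb either side. The methods give a minimum depth for the libraries, but the number of reads left in each after filtering is not known here. It is therefore not known which weaker peaks these libraries could have shown.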

Other observations

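A few peaks lay over a gene for a short RNA, and these were noticed after the values had been seen. With 6082 annotated genes for short non-coding RNA, 7 peaks lay over such a gene, and those over microRNA genes scored 59 to 81. Of 1737 annotated genes for small nuclear or ribosomal RNA, 4 were under a peak. All peaks together covered 0.0212% of the known bases of the genome. At Gm24407, whose sequence is printed above, a peak of 148 bp with a score of 1818 began 4 bp before and ended 3 bp after the small nuclear RNA gene. It recurred with 100K cells, where it scored 1224, and was not listed against IgG. At Gm22068 on chromosome 11 a peak of 166 bp (score 487) began with the gene and ended 2 bp after it, and was listed with scores of 60 against IgG and 180 with 100K cells. At Gm22513 on chromosome 12 the peak began 6 bp before the gene and ran 98 bp past its end, and scored 1094, 198 against IgG and 530 with 100K cells. The fourth, within the ribosomal RNA gene n-R5-8s1, scored 1433 and was listed neither against IgG nor with 100K cells.

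In coding sequence, 32 of the 178 edges of the 89 peaks lay within 5 bp of the edge of a coding exon, and 2 peaks had both edges there. These peaks were selected for overlapping coding sequence and no background share was computed, so whether edges gather there was not tested. Scores were not spread evenly: the 2043 peaks had 430 different scores, and the 20 most common of them, led by a score of 70 at 69 peaks, were shared by 868 peaks (42.5%).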
